A study of Mus musculus with 4 samples.

Results

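CD25, a receptor chain for the cytokine IL-2, marks most regulatory T (Treg) cells, whose lineage factor is Foxp3, but helper T cells that lack Foxp3 also carry it, as a rule after activation. The comparison described here sets CD4+ CD25hi Foxp3+ T cells against CD4+ CD25+ Foxp3- T cells, so that the sorted populations share surface CD25 and differ in Foxp3 (and, as the labels word it, in the level of CD25). The members were chosen by sample title, 1 array for each population, and are 2 of the 4 arrays of the series. The other arrays hold CD4+ CD25lo Foxp3+ and CD4+ CD25- Foxp3- T cells and are given beside the results as levels. All 4 populations came from spleens and lymph nodes of male Foxp3-GFP knock-in mice on a B6/129 F2 background, aged 5 to 8 weeks. Green fluorescent protein (GFP) in these mice reports Foxp3. Cells of 25 mice were depleted with antibodies to CD8, B220, CD11b, NK1.1 and DX5 and sorted on CD4, GFP and CD25, and RNA went through 2 cycles of amplification before hybridisation to Affymetrix mouse arrays of 45101 probe sets. Each population is thus a pool of many mice on 1 array, with no replicate.

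Foxp3 is a forkhead transcription factor. In Treg cells it is known to repress effector cytokine genes such as Il2 and to sustain genes of suppression such as Ctla4. Activated helper T cells without Foxp3 use CD25 to take up the IL-2 they and their neighbours make, divide and secrete cytokines. Treg cells in general make little IL-2 and depend on that of other cells, with CD25 as part of the high-affinity receptor. A pool of CD25+ Foxp3- cells can hold recently activated, effector and memory T cells, and also innate-like lymphocytes.

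Values are intensities of probe sets on the linear scale the authors deposited, and differences are in log2, CD25hi Foxp3+ minus CD25+ Foxp3-. With 1 array on each side there is no replicate error, no test was possible, and every statement below is about the size of a difference between these 2 arrays. Genes were read from their brightest probe set. Readings under 10.1, the 40th percentile of all values, were raised to that floor, and a fold against the floor is written as at least. A gene counted as measured when at least 1 of the 4 arrays reached 32.5, the 60th percentile, which left 9623 genes. A gene that passes this filter only through 1 array of the pair is bound to read lower in the other, though not by any set fold. A list's counts are therefore given with the number of its genes that reach 32.5 in all 4 arrays. Over all genes 8494 did.

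The sort genes followed the labels. Foxp3 read 1308 in CD25hi Foxp3+ cells, against 16.8 in CD25+ Foxp3- cells. In the arrays outside the pair it read 1117 for CD25lo Foxp3+ and 17.6 for CD25- Foxp3- cells. The 2 Foxp3+ arrays were thus far above the 2 Foxp3- arrays. The CD25 gene, Il2ra, read 1562 in CD25hi Foxp3+ cells, against 283 in CD25+ Foxp3- cells, 5.53-fold apart. A second Il2ra probe set read 417 in CD25hi Foxp3+ cells, against 114 in CD25+ Foxp3- cells. For CD25lo Foxp3+ cells the 2 probe sets read 288 and 84.2, and for CD25- Foxp3- cells 22.3 and under the floor. CD25+ Foxp3- cells were thus nearer in Il2ra to CD25lo than to CD25hi Foxp3+ cells. CD25hi Foxp3+ and CD25+ Foxp3- cells were both sorted as bearing CD25 while their Il2ra readings differed. Foxp3 and Il2ra, being sort genes, are left out of all list counts. Cd4 read 2455 in CD25hi Foxp3+ cells, against 2434 in CD25+ Foxp3- cells. Of 10 measured markers of conventional CD4 T cells (10 in all 4 arrays) 1 differed by 2-fold, Cd2, an adhesion receptor, which read 10149 in CD25hi Foxp3+ cells, against 3604 in CD25+ Foxp3- cells.

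Of all measured genes 464 (4.82%) read 2-fold or more higher in CD25hi Foxp3+ cells and 658 (6.84%) read 2-fold or more lower. These shares are the yardstick for every list and family count below. Counts near them say nothing particular about a list. Over all measured genes, differences were larger on the lower side. At 4-fold, 59 genes were higher (0.613%) and 151 lower (1.57%), and at 8-fold 13 were higher and 59 lower. In either direction 30.4% of genes were at least 1.5-fold apart, 11.7% at least 2-fold and 2.18% at least 4-fold. The lower reading of the pair was at the floor, so that only a bound on the fold can be given, for 10 of the higher genes and for 52 of the lower genes. The median log2 difference over all genes was 0.03 and the median absolute difference 0.36. Across the 9623 genes, which are not independent replicates, the log2 intensities of the 2 arrays had a Pearson r of 0.939. The scatter plot of the 2 arrays shows these differences at every brightness.

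**Figure D1:**
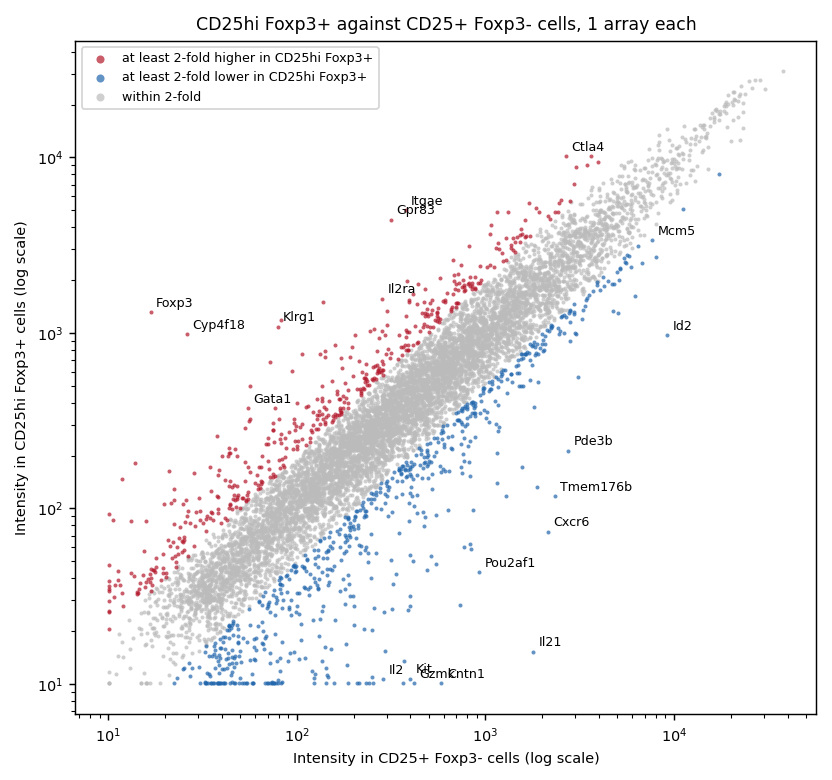
Intensity of each of 9623 genes in CD25hi Foxp3+ cells (vertical) and in CD25+ Foxp3- cells (horizontal), 1 array each, both axes on a log scale, with values under the floor of 10.1 drawn at it. Red points are the 464 genes at least 2-fold higher and blue points the 658 at least 2-fold lower in CD25hi Foxp3+ cells, and the blue points spread farther from the diagonal, with Il21 and Cntn1 at its lower edge.

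Different probe sets of a gene gave a limited check within the arrays. Of 181 genes that were 2-fold higher and had at least 2 measured probe sets, 171 (94.5%) had all of them on the higher side, and in 78 (43.1%) every probe set was past 2-fold. Of 250 such genes that were 2-fold lower, 221 (88.4%) had all on the lower side, and in 112 (44.8%) every one was past 2-fold. Among genes within 2-fold, 59.4% had all probe sets on the same side. The brightest probe set, which made the call, is counted in all these shares. The shares of called genes are thus fixed in part, and the 59.4% is no like baseline for them. In most called genes the probe sets shared a side, while the size of a fold often differed.

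Among genes bright enough to reach 32.5 in both arrays, the largest differences upward were in genes of several kinds. Gsta4, a glutathione transferase that detoxifies lipid aldehydes, read 1184 in CD25hi Foxp3+ cells, against 82.6 in CD25+ Foxp3- cells, 14.3-fold. Gpr83, a G protein-coupled receptor long used as a Treg marker, read 4426 in CD25hi Foxp3+ cells, against 315 in CD25+ Foxp3- cells, and its 2 probe sets differed by 3.81 and 3.91 in log2. Klrg1, an inhibitory receptor for cadherins, read 1085 in CD25hi Foxp3+ cells, against 79.1 in CD25+ Foxp3- cells. Itgae, the alpha E integrin chain that pairs with beta 7 and binds E-cadherin, read 4994 in CD25hi Foxp3+ cells, against 377 in CD25+ Foxp3- cells. These 4 genes were each at least 13-fold apart.

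The next were Itih5, an inter-alpha-trypsin inhibitor heavy chain, with a log2 difference of 3.46, and Prg4, the joint lubricant lubricin, at 9.49-fold. Ppm1l, a protein phosphatase, was 8.81-fold and Slc35d1, a nucleotide sugar transporter, 7.14-fold higher. Rragd, a Rag GTPase through which amino acids signal to mTORC1, read 258 in CD25hi Foxp3+ cells, against 37.9 in CD25+ Foxp3- cells. Gata1, best known as the erythroid and mast cell GATA factor, read 372 in CD25hi Foxp3+ cells, against 55.0 in CD25+ Foxp3- cells, and 36.4 in CD25lo Foxp3+ and 65.3 in CD25- Foxp3- cells, so it was high in 1 array of the 4. The kinase Matk was 6.48-fold, the polarity gene Pard6g 5.68-fold, Sh3bgrl2 5.67-fold and the carnitine transporter Slc22a5 5.53-fold higher. Epcam, an epithelial adhesion molecule, was 5.67-fold higher by 1 probe set, while its second, dimmer one went slightly the other way, by -0.48 in log2.

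Where CD25+ Foxp3- cells read under 32.5 the folds are less certain. Cyp4f18, a fatty acid hydroxylase of the cytochrome P450 family, read 980 in CD25hi Foxp3+ cells, against 26.1 in CD25+ Foxp3- cells. It read 49.9 in CD25lo Foxp3+ cells, so it was bright in CD25hi Foxp3+ cells alone. The muscle filament gene Neb read 182 in CD25hi Foxp3+ cells, against 13.9 in CD25+ Foxp3- cells. Drc1, a part of the ciliary axoneme, read 147 in CD25hi Foxp3+ cells, against 11.9 in CD25+ Foxp3- cells, Prkar1b was at least 9.21-fold higher, and Ncmap, Lamc1, Sorcs2, Ampd1, Tlr7 and Kctd12b were between 5.40-fold and 8.13-fold higher. Ampd1, the AMP deaminase of muscle, had its highest reading outside the pair, with 206 in CD25- Foxp3- cells. It read 128 in CD25hi Foxp3+ cells, against 22.4 in CD25+ Foxp3- cells.

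On the lower side the largest fold among genes with both arrays at 32.5 or more was in Cxcr6, the receptor for CXCL16 carried by effector and tissue-resident T cells. It read 73.5 in CD25hi Foxp3+ cells, against 2148 in CD25+ Foxp3- cells, 29.2-fold lower, and its 2 probe sets differed by -4.87 and -5.00 in log2. Pou2af1, a coactivator best known in B cells, read 43.2 in CD25hi Foxp3+ cells, against 928 in CD25+ Foxp3- cells. Tmem176b, a membrane protein known from dendritic cells and RORgammat-bearing lymphocytes, read 118 in CD25hi Foxp3+ cells, against 2332 in CD25+ Foxp3- cells, and its neighbour gene Tmem176a read 28.3 in CD25hi Foxp3+ cells, against 733 in CD25+ Foxp3- cells. The pair of Tmem176 genes moved alike, 19.8-fold and 25.9-fold lower.

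Id2, an inhibitor of E proteins that is needed for innate lymphoid and effector fates, read 970 in CD25hi Foxp3+ cells, against 9203 in CD25+ Foxp3- cells. Its 3 probe sets all went lower, by -3.25, -2.84 and -0.82 in log2. Pde3b, which encodes a cyclic AMP phosphodiesterase, read 213 in CD25hi Foxp3+ cells, against 2742 in CD25+ Foxp3- cells, and 281 in CD25lo Foxp3+ and 6467 in CD25- Foxp3- cells. It was low in both Foxp3+ arrays. The sialyltransferase St6galnac2 was 14.3-fold lower, the cysteine protease inhibitor homologue Ctla2a 12.8-fold and Fasl, the ligand that kills through Fas, 9.55-fold. Carbonic anhydrase Car2 was 10.9-fold, Gpm6b, a membrane protein of the nervous system, 9.08-fold and the cytotoxic lymphocyte adhesion molecule Crtam 8.72-fold lower. The T cell receptor gamma variable genes Trgv1 and Trgv4 had log2 differences of -3.73 and -3.45. H2-Aa and H2-Ab1, chains of MHC class II, were 14.2-fold and 11.3-fold lower.

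Some genes were bright in CD25+ Foxp3- cells and close to background in CD25hi Foxp3+ cells. Cntn1, a neural adhesion molecule, was at the floor in CD25hi Foxp3+ cells and in both arrays outside the pair, against 583 in CD25+ Foxp3- cells, and was at least 57.7-fold lower. The receptor kinase Kit, the receptor for stem cell factor, read 10.7 in CD25hi Foxp3+ cells, against 399 in CD25+ Foxp3- cells. The granzyme Gzmk was at least 41.1-fold, the potassium channel Kcnk1 at least 36.0-fold, Pxdc1 at least 25.0-fold and the stress kinase Mapk10 at least 23.8-fold lower. The lectin-like receptor Klrb1f read 13.5 in CD25hi Foxp3+ cells, against 370 in CD25+ Foxp3- cells.

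Cytokine genes stood at the far end of the lower side. Il21, whose product helps B cells and germinal centres, read 15.3 in CD25hi Foxp3+ cells, against 1794 in CD25+ Foxp3- cells, 118-fold lower, the largest difference of the comparison. Il2, the T cell growth factor that binds the receptor both populations were sorted on, read 10.7 in CD25hi Foxp3+ cells, against 286 in CD25+ Foxp3- cells, 26.9-fold lower. In the arrays outside the pair Il2 read 14.1 for CD25lo Foxp3+ and 17.3 for CD25- Foxp3- cells, so of the 4 only CD25+ Foxp3- cells reached 32.5. The low readings are near the floor of 10.1, and the sizes of these folds are therefore uncertain.

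Because Il21 and Il2 are neighbours on mouse chromosome 3 and stand at this extreme, the 250 bases before their starts are shown with those of Ctla4, a gene on the higher side. They are written 5′ to 3′ and come from RefSeq, assembly GRCm38.p6: Il21 at chr3:37232637-37232886 and Il2 at chr3:37125955-37126204, both on the minus strand, and Ctla4 at chr1:60908775-60909024 on the plus strand. Capitals mark GGAAA on either strand, the core letters of the sites of NFAT, the calcium-regulated factor of T cell activation. TGANTCA (AP-1 family letters) and TGTTTAC (forkhead letters) were searched on both strands as well, and neither occurs in these 3 windows.
Il21: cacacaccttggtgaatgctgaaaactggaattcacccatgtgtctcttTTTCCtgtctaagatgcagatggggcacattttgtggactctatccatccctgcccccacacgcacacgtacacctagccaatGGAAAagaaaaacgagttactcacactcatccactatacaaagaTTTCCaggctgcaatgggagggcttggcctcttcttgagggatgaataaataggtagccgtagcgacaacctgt
Il2: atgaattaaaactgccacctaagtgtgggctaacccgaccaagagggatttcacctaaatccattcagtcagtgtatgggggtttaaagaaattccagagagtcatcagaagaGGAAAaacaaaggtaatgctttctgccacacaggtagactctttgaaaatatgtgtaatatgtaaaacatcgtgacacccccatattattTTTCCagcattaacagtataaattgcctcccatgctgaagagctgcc
Ctla4: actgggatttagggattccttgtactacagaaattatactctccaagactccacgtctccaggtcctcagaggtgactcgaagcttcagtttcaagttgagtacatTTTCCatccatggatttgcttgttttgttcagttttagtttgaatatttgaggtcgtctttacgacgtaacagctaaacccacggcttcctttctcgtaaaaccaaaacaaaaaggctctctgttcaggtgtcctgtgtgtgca
GGAAA occurs 3 times in the Il21 window, 2 times in the Il2 window and 1 time in the Ctla4 window. Such letters are common. Of genes with an entry, 49.0% of the 357 that were 2-fold higher, 56.0% of the 504 that were 2-fold lower and 54.7% of all 7896 measured genes held GGAAA in this window. TGANTCA was held by 5.32% of the higher, 5.56% of the lower and 3.94% of the measured genes, and TGTTTAC by 2.52% of the higher, 1.98% of the lower and 2.22% of the measured genes. A match of letters is a description and not a binding site.

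Of 24 measured effector cytokine and chemokine genes 15 were at least 2-fold lower in CD25hi Foxp3+ cells and 1 was higher, with a median log2 difference of -1.80, beside 6.84% lower, 4.82% higher and a median of 0.03 over all genes. Only 12 of the 24 reached 32.5 in all 4 arrays, and over those the median was -0.83, as it was over all listed genes with a probe set. Il4, the signature cytokine of type 2 helper cells, read 11.2 in CD25hi Foxp3+ cells, against 145 in CD25+ Foxp3- cells. Ifng, that of type 1 helper cells, read 140 in CD25hi Foxp3+ cells, against 1146 in CD25+ Foxp3- cells. Il17a, that of Th17 cells, was at the floor in CD25hi Foxp3+ cells, against 49.6 in CD25+ Foxp3- cells. For each of 3 helper lineages 1 cytokine gene read higher in the same CD25+ Foxp3- pool. Within the pair Il4 and Il17a reached 32.5 in CD25+ Foxp3- cells alone, so the filter may have had a part in their direction. Ccl1, a ligand of CCR8, was 14.5-fold, and Tnfsf14 (LIGHT) 9.63-fold lower. The gene on the higher side was Il10, which restrains immune responses, at 207 in CD25hi Foxp3+ cells, against 44.1 in CD25+ Foxp3- cells. Tnf, Lta, Ltb and Tgfb1 stayed within 2-fold. Lta, the soluble lymphotoxin, read 336 in CD25hi Foxp3+ cells, against 341 in CD25+ Foxp3- cells.

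On the Treg list, which is known in part from profiles of such cells and is no independent evidence, 27 of 36 measured genes passed 2-fold upward in CD25hi Foxp3+ cells and 0 passed it downward. The list's median was 1.38, and 27 of the 36 reached 32.5 in all 4 arrays. Ctla4, an inhibitory receptor that competes with CD28 for its ligands, read 10132 in CD25hi Foxp3+ cells, against 2682 in CD25+ Foxp3- cells. Entpd1 (CD39) and Nt5e (CD73), which turn extracellular ATP into adenosine, were 5.39-fold and 2.26-fold higher. Swap70, a guanine nucleotide exchange adaptor, was 5.31-fold and Ecm1, a secreted matrix protein, 4.80-fold higher. All 27 read nearer to CD25+ Foxp3- than to CD25hi Foxp3+ cells in the CD25- Foxp3- array, and 23 read nearer to CD25hi Foxp3+ cells in the CD25lo Foxp3+ array.

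The 9 Treg genes that did not reach 2-fold were Ebi3, Tgfb1, Penk, Ccr4, Il1r2, Icos, Lag3, Rgs16 and Fgl2. Ebi3, a subunit of IL-35, read 233 in CD25hi Foxp3+ cells, against 250.5 in CD25+ Foxp3- cells. Icos, the inducible costimulator, read 7042 in CD25hi Foxp3+ cells, against 5473 in CD25+ Foxp3- cells, and Rgs16, a regulator of G protein signalling, read 386 in CD25hi Foxp3+ cells, against 397 in CD25+ Foxp3- cells. Lag3, Penk and Tgfb1 read lower in CD25hi Foxp3+ cells, within 2-fold. In the CD25- Foxp3- array Ebi3 read 41.6, Rgs16 75.2, Tgfb1 79.2 and Icos 2574, all lower than in the other 3 arrays.

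Of 17 measured genes of the IL-2 receptor and its STAT5 pathway, Il2ra apart, 5 were 2-fold higher, 2 lower and 10 within 2-fold, with a median of 0.80 (15 reached 32.5 in all 4 arrays). Il2rb, the signalling beta chain, read 1053 in CD25hi Foxp3+ cells, against 257 in CD25+ Foxp3- cells. The kinase gene Pim1 was 4.05-fold, and the STAT5-induced inhibitors of cytokine signalling Socs1, Socs2 and Cish were 3.01-fold, 2.66-fold and 2.46-fold higher. Socs1 read 41.1 in CD25hi Foxp3+ cells, against 13.7 in CD25+ Foxp3- cells, so it is dim in both. In the CD25lo Foxp3+ array only 1 of the 5 higher genes, Pim1, read nearer to CD25hi Foxp3+ cells. There Cish read 610 and Socs2 197, below CD25+ Foxp3- cells, at 672 and 382. Socs1 was at the floor there, and Il2rb read 459. The kinases Jak3 and Jak1 and the factors Stat5a and Stat5b were within 2-fold, the first at 1.92-fold. The lower genes were the cytokine Lif, 3.31-fold, and the kinase gene Pim2, 2.25-fold.

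**Figure D2:**
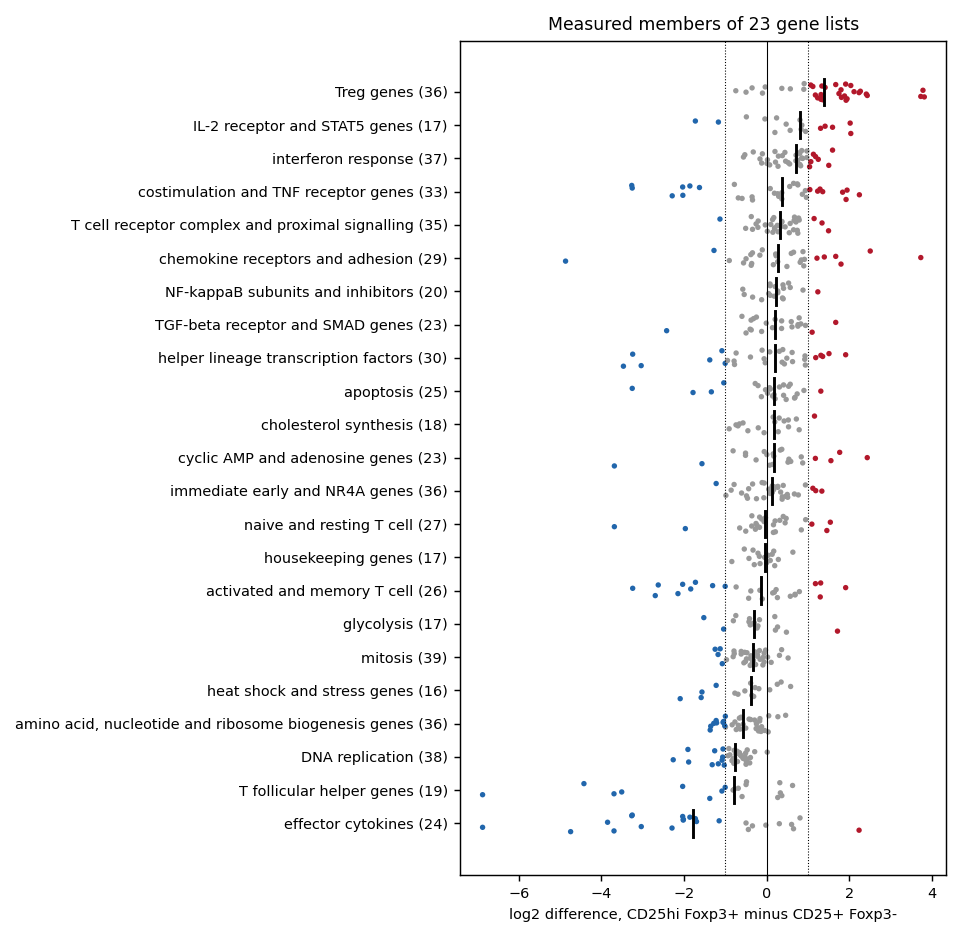
Each point is a measured gene of a list, placed at its log2 difference (CD25hi Foxp3+ minus CD25+ Foxp3-), with Foxp3 and Il2ra left out, the number of genes in brackets and the list's median as a black bar. Red and blue points are at least 2-fold higher and lower; the Treg list has the highest median, 1.38, and effector cytokines the lowest, -1.80.

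Of 33 measured costimulation and TNF family genes 8 were 2-fold higher, 7 lower and 18 within 2-fold, with a median of 0.36 (26 in all 4 arrays). The higher ones were the receptors Tnfrsf18 (GITR), Tnfrsf1b (TNF receptor 2), Tnfrsf4 (OX40), Tnfrsf9 (4-1BB), Tnfrsf25 (death receptor 3) and Cd27, with Ctla4 and its ligand Cd80. Tnfrsf18 read 3129 in CD25hi Foxp3+ cells, against 815 in CD25+ Foxp3- cells, and Tnfrsf1b read 2051 in CD25hi Foxp3+ cells, against 575 in CD25+ Foxp3- cells. Among the 7 lower ones 5 were ligands of the TNF family, Fasl, Tnfsf14, Tnfsf8 (CD30 ligand), Tnfsf11 (RANKL) and Tnfsf4 (OX40 ligand). Tnfsf11 read 525 in CD25hi Foxp3+ cells, against 1909 in CD25+ Foxp3- cells, and Tnfsf8 read 187 in CD25hi Foxp3+ cells, against 769 in CD25+ Foxp3- cells. The other lower genes were the NK-type receptors Cd160, 4.89-fold, and Cd244a, at least 4.09-fold.

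Of 29 homing and adhesion genes 6 were higher and 2 lower, with a median of 0.26 (25 in all 4 arrays). Beside Itgae and Epcam the higher ones were Ccr8, a receptor for CCL1, the integrin chain Itgb8, which helps to activate TGF-beta, and Itgb7 and Selplg. Ccr8 was 3.47-fold higher while the gene for its ligand Ccl1 was 14.5-fold lower. Itgb7, the partner of the alpha E chain, read 9104 in CD25hi Foxp3+ cells, against 3471 in CD25+ Foxp3- cells, with 9705 in CD25lo Foxp3+ and 8515 in CD25- Foxp3- cells, so its difference is a low reading in CD25+ Foxp3- cells. Selplg, the P-selectin ligand, had the same shape, at 3185 in CD25hi Foxp3+ cells, against 1373 in CD25+ Foxp3- cells, with 3186 in CD25- Foxp3- cells. Beside Cxcr6, Alcam was lower, 2.43-fold by its brightest probe set, with its 5 probe sets between -1.28 and 0.11 in log2.

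Among 30 lineage transcription factors other than Foxp3, 5 were higher and 6 lower, with a median of 0.19 (28 in all 4 arrays). Tbx21 (T-bet), the type 1 helper factor, read 20.5 in CD25hi Foxp3+ cells, against 227 in CD25+ Foxp3- cells, and the related Eomes was 8.22-fold lower. Beside Id2, the others lower were Bcl6, the T follicular helper factor, 2.60-fold, Tox2, 2.12-fold, and Maf, 2.01-fold. Maf has 5 measured probe sets, which ran from -1.01 to 0.60, so its call rests on 1 of them. Higher were Prdm1 (Blimp-1), 3.75-fold, Id3, 2.84-fold, the Ikaros family members Ikzf2 (Helios), 2.55-fold, and Ikzf4 (Eos), 2.48-fold, and Nfil3, 2.27-fold. Id2 and Id3, which encode related inhibitors, thus went opposite ways, Id3 reading 565 in CD25hi Foxp3+ cells, against 199 in CD25+ Foxp3- cells. Gata3 and Rora were within 2-fold.

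The T follicular helper list had 8 of 19 measured genes lower and none higher, with a median of -0.78 (16 in all 4 arrays), and 15 of the 19 stand on another list. Beside Il21, Il4, Bcl6, Tox2, Maf, Tnfsf8 and Pou2af1 it holds Sostdc1, a secreted BMP and Wnt inhibitor, which read 10.8 in CD25hi Foxp3+ cells, against 123 in CD25+ Foxp3- cells. Cxcr5, the receptor that brings these cells into B cell follicles, read 402 in CD25hi Foxp3+ cells, against 335 in CD25+ Foxp3- cells. Of 26 activated and memory genes 9 were lower and 4 higher, with a median of -0.14 (26 in all 4 arrays). Anxa1 was 6.49-fold, the IL-18 receptor chain Il18rap 6.18-fold and Lgals3 (galectin-3) 4.44-fold lower, whereas S100a6, Crip1 and Emp3 were between 2.26-fold and 2.47-fold higher.

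Of 38 DNA replication genes 10 were lower in CD25hi Foxp3+ cells and none higher, with a median of -0.76 (33 in all 4 arrays). The helicase subunit gene Mcm5 read 3377 in CD25hi Foxp3+ cells, against 7619 in CD25+ Foxp3- cells, and Cdc6, which loads the helicase, read 204 in CD25hi Foxp3+ cells, against 756 in CD25+ Foxp3- cells. Dtl, which marks Cdt1 for destruction in S phase, was 3.76-fold lower by its brightest probe set, with 5 probe sets between -1.91 and -0.09. Ccne2 (cyclin E2) was 2.40-fold and Mcm3 2.50-fold lower, and Orc1, dim in CD25hi Foxp3+ cells, was 4.81-fold lower. All 10 read nearer to CD25hi Foxp3+ than to CD25+ Foxp3- cells in both arrays outside the pair.

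Mitosis genes lay closer, with 4 of 39 lower, none higher and a median of -0.34 (35 in all 4 arrays). Over all genes 6.84% were lower and 4.82% higher. The 4 lower ones were Ncapg and Smc2 of the condensin complex, the cytokinesis factor Ect2 and the spindle checkpoint kinase Bub1, between 2.11-fold and 2.38-fold. All 4 read nearer to CD25+ Foxp3- cells in the CD25lo Foxp3+ array. The list's summed intensity was 15566 in CD25hi Foxp3+, 20693 in CD25+ Foxp3- and 20640 in CD25lo Foxp3+ cells. Of the 39 genes, 38 were 2-fold higher in CD25lo Foxp3+ than in CD25- Foxp3- cells. Mki67, which encodes Ki-67, read 2923 in CD25hi Foxp3+ cells, against 3698 in CD25+ Foxp3- cells. The CD25- Foxp3- array read 818, below both. Of 36 genes of amino acid, nucleotide and ribosome synthesis 9 were lower and none higher, with a median of -0.59 (35 in all 4 arrays). Odc1, the first enzyme of polyamine synthesis, read 1995 in CD25hi Foxp3+ cells, against 5109 in CD25+ Foxp3- cells, with 3 probe sets between -1.99 and -1.32. The snoRNP protein genes Nop58 and Dkc1 were 2.44-fold and 2.08-fold, Nolc1 2.32-fold, the RNA polymerase I subunit Polr1b 2.34-fold and Shmt1 2.58-fold lower. Myc, which drives such genes, read 828 in CD25hi Foxp3+ cells, against 802 in CD25+ Foxp3- cells.

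Of 17 glycolysis genes, all of which reached 32.5 in all 4 arrays, the glucose transporter Slc2a3 was 3.27-fold higher and the lactate transporter Slc16a1 and hexokinase Hk2 were 2.88-fold and 2.06-fold lower, with a median of -0.30, and Gapdh and Ldha were 1.23-fold and 1.34-fold lower. Of 18 cholesterol synthesis genes (18 in all 4 arrays) the regulator Srebf2 was 2.22-fold higher and none was lower, beside 4.82% and 6.84% over all genes. A second Srebf2 probe set was within 2-fold, with a log2 difference of 0.45. Hmgcs1, which makes HMG-CoA, is counted as within 2-fold by its brightest probe set, at 1906 in CD25hi Foxp3+ cells, against 1995 in CD25+ Foxp3- cells. A second, dimmer probe set of it read 252 in CD25hi Foxp3+ cells, against 1130 in CD25+ Foxp3- cells, and its 5 probe sets ran from -2.17 to 0.30, so its place cannot be settled here. Of the 5, 3 were more than 2-fold lower. Of 16 heat shock and stress genes (15 in all 4 arrays) 4 were lower, among them Hspe1, 2.97-fold, and Hspa1a, 4.27-fold, whose near-identical copy Hspa1b can share its signal, and none of 17 housekeeping genes (17 in all 4 arrays) differed by 2-fold.

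Of 37 measured interferon response genes 7 were higher in CD25hi Foxp3+ cells and 0 lower, with a median of 0.70 (34 in all 4 arrays). They were Isg20, 2.83-fold, Gbp3, 2.37-fold, Irgm2, 2.26-fold, Usp18, 2.19-fold, Irf1, 2.09-fold, Ifit1, 2.05-fold, and Socs1, which is also on the IL-2 list. Irf1, a factor induced by interferons, read 4902 in CD25hi Foxp3+ cells, against 2342 in CD25+ Foxp3- cells, with 4657 in CD25lo Foxp3+ and 5084 in CD25- Foxp3- cells. As with Itgb7, CD25+ Foxp3- cells read lowest of the 4. For 4 of the 7 the CD25- Foxp3- array read nearer to CD25hi Foxp3+ cells.

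Of 27 measured genes of naive and resting T cells 3 were higher and 2 lower, with a median of -0.03 (27 in all 4 arrays). Over all genes 4.82% were higher and 6.84% lower. The quiescence factors Klf2 and Foxo1 were 2.74-fold and 2.13-fold higher and the integrin chain Itga6 2.90-fold, and each read nearer to CD25hi Foxp3+ cells in both other arrays. Pde3b and Dapl1 were lower, and Dapl1 read 163 in CD25hi Foxp3+ cells, against 639 in CD25+ Foxp3- cells, with 3909 in CD25- Foxp3- cells. Ccr7 and Lef1, 2 genes of naive cells, were within 2-fold. Of 23 cyclic AMP and adenosine genes (21 in all 4 arrays) 4 were higher and 2 lower. Beside Pde3b, Pde7a was 2.97-fold lower, and beside Entpd1 and Nt5e, the cyclic AMP-induced factor Crem was 3.39-fold and the adenylyl cyclase Adcy6 2.93-fold higher. Of 23 TGF-beta pathway genes (19 in all 4 arrays) the receptor gene Tgfbr1 was 2.14-fold and Itgb8 3.18-fold higher, and the coreceptor Tgfbr3 was 5.37-fold lower.

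Of 35 genes of the T cell receptor complex and its proximal signalling (35 in all 4 arrays) 3 were higher and 1 lower, with a median of 0.31. The higher ones were Cd2, the ubiquitin ligase Cbl, 2.52-fold, and the adaptor Trat1, 2.21-fold, and the lower one Themis, 2.19-fold. Second probe sets of Cbl and Trat1 were within 2-fold, with log2 differences of 0.65 and 0.07. Of 36 immediate early genes (34 in all 4 arrays) Dusp4, Rgs1 and Dusp5 were between 2.16-fold and 2.52-fold higher and Atf3 2.34-fold lower, with a median of 0.13. Of 20 NF-kappaB genes (20 in all 4 arrays) only Bcl3 passed, 2.35-fold higher, and Nfkbia and Tnfaip3 were 1.13-fold and 1.20-fold higher. The T cell receptor, immediate early and NF-kappaB counts lay near the shares over all genes, 4.82% higher and 6.84% lower. Of 25 apoptosis genes (24 in all 4 arrays) Casp6 was 2.47-fold higher, and Casp1, Casp4, Fasl and Cycs were lower, Casp1 by 3.45-fold.

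**Figure D3:**
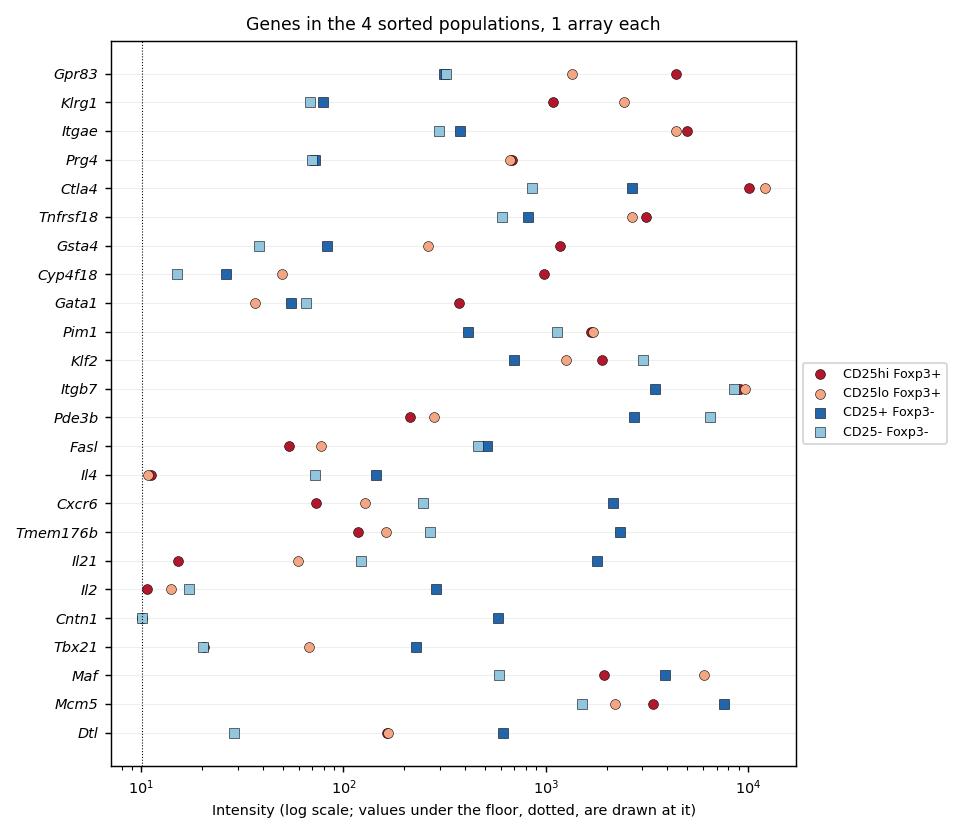
Intensity (log scale) of 24 genes in the 4 sorted populations, 1 array each, as circles for CD25hi and CD25lo Foxp3+ cells and squares for CD25+ and CD25- Foxp3- cells, with the floor dotted. The circles lie together above the squares for Itgae and below them for Pde3b, CD25hi Foxp3+ cells stand alone for Cyp4f18 and Gata1, and CD25+ Foxp3- cells stand alone above the rest for Cxcr6, Il2 and Cntn1 and below the rest for Pim1 and Itgb7.

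The arrays outside the pair show in which population a differing gene was high. Of the 464 genes higher in CD25hi Foxp3+ cells, 176 (37.9%) had the Foxp3 shape: CD25lo Foxp3+ cells read nearer to CD25hi Foxp3+ cells and CD25- Foxp3- cells nearer to CD25+ Foxp3- cells, as for Gpr83, Itgae and Ctla4. For another 138 (29.7%), such as Pim1, Klf2 and Itgb7, both of these arrays read nearer to CD25hi Foxp3+ cells, and for 82 (17.7%), such as Gsta4, Gata1 and Il2rb, both read nearer to CD25+ Foxp3- cells. In the remaining 68 (14.7%) the 2 arrays were placed the other way round. A gene nearer to CD25+ Foxp3- cells need not be low in CD25lo Foxp3+ cells. Gsta4 read 262 and Il2rb 459 there, above CD25+ Foxp3- cells, at 82.6 and 257. They were also 6.85-fold and 6.70-fold higher there than in CD25- Foxp3- cells, whereas Gata1 read 36.4 in CD25lo Foxp3+ cells. Of the 658 lower genes, 406 (61.7%) had both arrays nearer to CD25hi Foxp3+ cells, as for Cxcr6 and Il2, and 118 (17.9%) had the Foxp3 shape, as for Pde3b and Fasl. Where 1 array stands apart from the other 3 there is no second array of its kind to set beside it.

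CD25lo Foxp3+ and CD25- Foxp3- cells form a second Foxp3+ and Foxp3- pair that shares no array with the first. The Foxp3+ side read higher in Il2ra in both pairs, 5.53-fold in the first and 12.9-fold in the second. Genes shared by the pairs therefore cannot tell Foxp3 and CD25 apart. Of the 464 genes higher in CD25hi than in CD25+ Foxp3- cells, 156 were also 2-fold higher in this second pair, which is 33.6% of them and 17.8% of the 875 genes higher there, and 39 (8.41%) were 2-fold lower. Over all measured genes the second pair had 9.09% higher and 6.88% lower. Of the 658 lower genes, 137 were also lower in the second pair, 20.8% of them and 20.7% of the 662 lower there, and 104 (15.8%) were 2-fold higher. Gpr83, Klrg1, Itgae, Prg4, Ctla4 and Il10 were higher in both pairs, and Pde3b, St6galnac2, Il4, Fasl and Crtam were lower in both. The plot of the 2 pairs shows these genes in its corners.

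**Figure D4:**
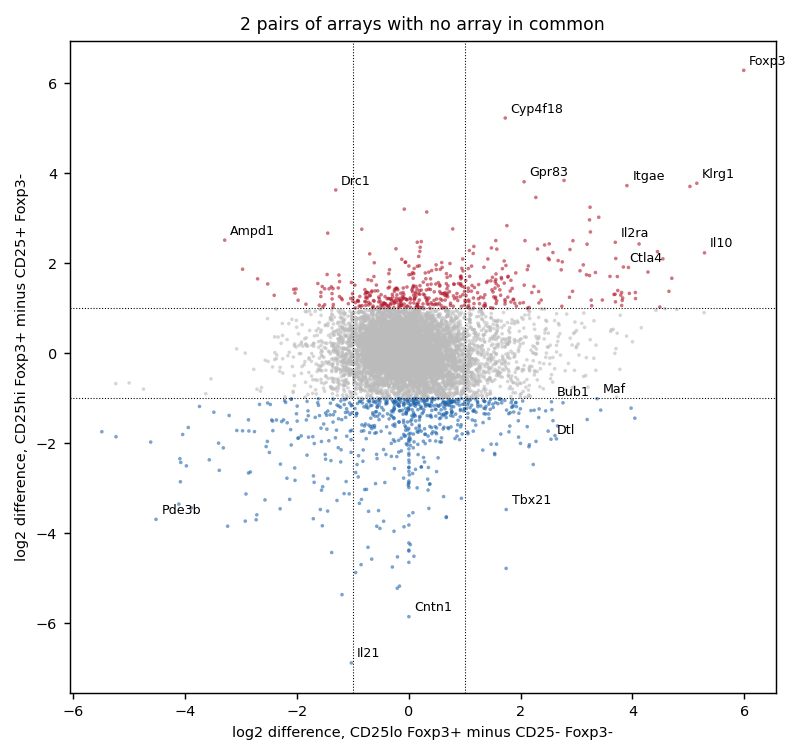
Each of 9623 genes by its log2 difference in CD25hi Foxp3+ minus CD25+ Foxp3- cells (vertical) and in CD25lo Foxp3+ minus CD25- Foxp3- cells (horizontal), with 2-fold lines dotted and the colours of the first scatter plot. The upper right corner holds 156 genes and the lower left 137, while 39 and 104 genes passed 2-fold the opposite way in the second pair.

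Markers of other cell types are given as levels, since many are dim and passed the filter only through an array in which they were high. The filter itself thus favours differences among them, and their counts support nothing. In a pool, fewer cells of a type and less RNA per cell cannot be told apart. Of 12 measured markers of CD8 T and NK cells 9 were lower and none higher, and 7 of the 12 reached 32.5 in all 4 arrays. Their summed intensity was 889 in CD25hi Foxp3+ cells, against 3084 in CD25+ Foxp3- cells. Outside the pair it was 1485 in CD25lo Foxp3+ and 3455 in CD25- Foxp3- cells. Cd8a itself read 101 in CD25hi Foxp3+ cells, against 185 in CD25+ Foxp3- cells, within 2-fold, and Ncr1, a defining NK receptor, was at the floor in CD25hi Foxp3+ cells, against 36.2 in CD25+ Foxp3- cells. Of 11 B cell markers 8 were lower, the MHC class II genes among them, and 1, Fcmr, was 4.95-fold higher, and 7 of the 11 reached 32.5 in all 4 arrays. Their summed intensity was 10411 in CD25hi Foxp3+ cells, against 16480 in CD25+ Foxp3- cells, with 12442 in CD25lo Foxp3+ and 17226 in CD25- Foxp3- cells. Cd79a, Cr2, Fcer2a, Ebf1 and Pax5 stayed under the filter in all 4 arrays, and Ms4a1 (CD20) read 15.9 in CD25hi Foxp3+ cells, against 66.7 in CD25+ Foxp3- cells.

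Of 12 myeloid markers, of which 5 reached 32.5 in all 4 arrays, 7 were lower and none higher, with a summed intensity of 1264 in CD25hi Foxp3+ cells, against 1785 in CD25+ Foxp3- cells. Fcer1g, a signalling chain of Fc and NK receptors, read 15.5 in CD25hi Foxp3+ cells, against 294 in CD25+ Foxp3- cells, and Itgam, Itgax, Cd14 and Flt3 stayed under the filter. All 4 measured red cell markers were lower, of which 1 reached 32.5 in all 4 arrays, with sums of 176 in CD25hi Foxp3+ cells, against 1637 in CD25+ Foxp3- cells, of which Car2 holds the most, and the globin gene Hba-a1 stayed under the filter. Of the 3 measured markers for gamma delta T cells and NKT cells 0 reached 32.5 in all 4 arrays, so their lower readings were fixed in part by the filter, with sums of 35.7 in CD25hi Foxp3+ cells, against 185 in CD25+ Foxp3- cells, and Zbtb16 (PLZF) was at the floor in CD25hi Foxp3+ cells, against 82.2 in CD25+ Foxp3- cells. Of 8 innate lymphoid cell markers (7 in all 4 arrays) Kit, Id2, Tnfsf11 and Il17rb were lower and Klrg1 was higher, with sums of 7546 in CD25hi Foxp3+ cells, against 18083 in CD25+ Foxp3- cells. Id2 alone gave 970 and 9203 of these sums, and 7 of the 8 markers stand on another list. Among 2 measured mast cell and basophil markers (0 in all 4 arrays) Kit was lower, and Fcer1a, Ms4a2, Mcpt8 and Cma1 stayed under the filter. In CD25- Foxp3- cells the sums were 2159 for myeloid, 883 for red cell, 71.9 for gamma delta T and NKT and 10598 for innate lymphoid cell markers. In CD25lo Foxp3+ cells they were 1743, 461, 67.6 and 10978. For CD8 T and NK, B and myeloid cell markers the CD25- Foxp3- sum was thus the highest of the 4 arrays. The part of cells of other types in the differences above was not tested. With every listed marker of another cell type left out, an alternative chosen after seeing the data, 461 genes were higher and 624 lower. This drops the listed genes alone, and unlisted ones such as Igha and Trgv1 stay in the counts. It therefore cannot show the part of such cells.

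**Figure D5:**
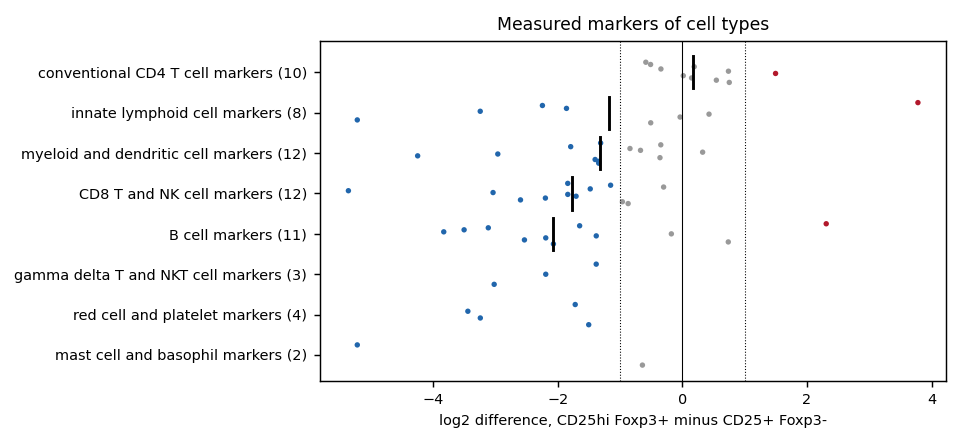
Each point is a measured marker of a cell type at its log2 difference (CD25hi Foxp3+ minus CD25+ Foxp3-), with numbers of markers in brackets and a black bar for the median where a list has at least 5. Markers of conventional CD4 T cells lie around 0, and those of the other cell types lie mostly to the left, lower in CD25hi Foxp3+ cells.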

How the data were processed

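Gene expression was measured in 4 sorted mouse CD4+ T cell populations, 1 array each, grouped by sample title. The authors deposited a linear intensity for each probe set, as the range of the values shows. For summarisation, background correction and normalization, the method is not given in the sources consulted. Array medians lay between 15.03 and 15.63, so no further scaling was applied.

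Probe sets (45101, of which 64 controls) were named through the platform annotation: 34958 had 1 gene, 932 several and 9147 none, and the last 2 kinds were left out. Of the named ones 34754 matched RefSeq (GRCm38.p6) by Entrez identifier, which changed no symbol. The floor, filter and probe set rules are given with the results. Analyses used Python 3.11.15, numpy 2.4.6 and pandas 2.3.3, and the counting was tested on simulated data.

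Named genes were Foxp3, Il2ra, the 15 largest differences each way with both arrays at 32.5 or more, the 10 largest with the lower array under it, and in each of 23 gene and 9 marker lists up to 6 past 2-fold each way. Clone and locus symbols (322 measured) were not named. Other genes named were chosen after their values were seen. The members and lists were chosen with earlier results of these data known. Promoter windows use the first RefSeq entry of a gene. The alternatives tried were scaling, floor, filter, pseudocount, choice of probe sets and unit counted.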

Additional observations from a re-analysis of the deposited data

Results flagged for a closer look

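These results passed 2-fold, or for a list a median of 0.5 in log2, in opposite directions in the 2 pairs of arrays that share none (CD25hi Foxp3+ minus CD25+ Foxp3-, then CD25lo Foxp3+ minus CD25- Foxp3-). Each rests on 1 array per population, and the difference between the pairs was not tested. No group has the samples needed to look for one that stands far from the others.

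The T follicular helper list had medians of -0.78 and 0.62. Cell division genes were lower in the first pair and higher in the second: Dtl with log2 differences of -1.91 and 2.54, Ccne2 with -1.26 and 1.75, Ncapg with -1.25 and 2.56, Ect2 with -1.18 and 1.38, Smc2 with -1.13 and 1.503, and Bub1 with -1.08 and 2.55. Transcription factors with this split were Tbx21, with -3.47 and 1.74, Maf, with -1.01 and 3.37, Tox2, with -1.09 and 1.23, and Atf3, with -1.23 and 1.03.

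Secreted and surface proteins had it as well. The cytokine Lif gave -1.73 and 1.15, Tnfsf11 gave -1.86 and 1.96, Lgals3 gave -2.15 and 1.32, and Alcam gave -1.28 and 2.45. The NK-type receptors Klrb1f and Cd244a gave -4.78 and 1.74, and -2.03 and 2.16. The inflammatory caspases Casp1 and Casp4 gave -1.79 and 1.06, and -1.34 and 1.79.

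The reverse, higher in the first pair and lower in the second, held for Ampd1, with 2.51 and -3.29, Klf2, with 1.45 and -1.26, Adcy6, with 1.55 and -1.63, Drc1, with 3.63 and -1.31, and Sorcs2, with 2.67 and -1.45. In the first pair Drc1, Sorcs2, Ampd1, Klrb1f, Lif, Cd244a, Tbx21 and Atf3 each had a reading under 32.5, so their sizes are uncertain. The 5 Maf probe sets ran there from -1.01 to 0.60 in log2, and the 5 Alcam ones from -1.28 to 0.11. The direction of Maf and Alcam in the first pair is thus not shared by all their probe sets.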

How the results depend on the processing

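No paired analysis was possible because each population has 1 array. Counts of genes past 2-fold ran from 353 to 506 higher and from 389 to 724 lower over the gene-level alternatives to 464 and 658. The count of lower genes was 389, and that of genes lower in both pairs 65 in place of 137, when all 4 arrays had to reach 32.5, which tests fewer genes and removes those at background on one side. With a pseudocount of 16 the genes lower in both pairs were 91. Counted as probe sets, 772 were higher and 1173 lower, since a gene can hold several. List medians kept within the pooled spread between probe sets of a gene, 0.389 in log2, in 320 of 336 cases. The exceptions were effector cytokines and B cell, CD8 T and NK cell, myeloid and innate lymphoid cell markers, with no change of sign. Of medians near 0, those of cholesterol synthesis, naive and resting T cell and housekeeping genes changed sign with the median over probe sets, to -0.0055, 0.16 and 0.05. The naive and resting median also did with quantile normalization, at 0.04, and the housekeeping median without probe sets that may match several transcripts, at 0.04. Without the filter the medians were -0.83 for effector cytokines, -0.78 for B cell, -0.67 for myeloid and -0.038 for innate lymphoid cell markers, in place of -1.80, -2.07, -1.33 and -1.19. With all 4 arrays at the filter they were -0.83, -1.65, -0.84 and -0.51, and -1.15 for CD8 T and NK cell markers in place of -1.77. With a pseudocount of 16 they were -1.26 for cytokines, -1.38 for B cell, -1.24 for CD8 T and NK cell and -0.88 for myeloid markers. A floor at the 50th percentile gave -1.65 for B cell and -1.36 for CD8 T and NK cell markers, and leaving out probe sets that may match several transcripts gave -0.27 for innate lymphoid cell markers. Of the 170 genes past 2-fold that the naming rule chose, none changed direction under a gene-level alternative in which it was measured. At most 9 of the 170 came under 2-fold, with the median over probe sets. Only 114 were measured with all 4 arrays at the filter, and 141 without probe sets that may match several transcripts. Genes named after their values were seen were not tried. Signal near background limits the folds of genes dim on one side, and 1 array per population limits all others.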

Other observations

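Some gene families, a few of whose members are on the lists above, were looked at after their values were seen, and are given as values. Of 20 measured interleukin receptor genes 4 were 2-fold higher in CD25hi Foxp3+ cells, the sort gene Il2ra, Il2rb, Il10ra and Il4ra, 6 were lower, Il1r1, Il1rl2, Il17rb, Il17re, Il18r1 and Il18rap, and the others were within 2-fold. Of the 20, 16 reached 32.5 in all 4 arrays. Il1r1, the signalling receptor for IL-1, read 42.1 in CD25hi Foxp3+ cells, against 334 in CD25+ Foxp3- cells, and Il17re, a receptor chain for IL-17C, read 12.3 in CD25hi Foxp3+ cells, against 143 in CD25+ Foxp3- cells. Il10ra, a receptor chain for IL-10, was 2.66-fold higher, and Il4ra read 773 in CD25hi Foxp3+ cells, against 317 in CD25+ Foxp3- cells.

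Among 7 measured NK-type lectin receptor genes Klrg1 was higher in CD25hi Foxp3+ cells and was the only 1 to reach 32.5 in all 4 arrays. The other 6 read under 32.5 in CD25hi Foxp3+ cells and passed the filter through another array, so their lower readings support nothing. Klrb1b was at the floor in CD25hi Foxp3+ cells, against 188 in CD25+ Foxp3- cells. Of 11 immunoglobulin genes, 7 of which reached 32.5 in all 4 arrays, 6 were lower and 1 higher. Of 7 MHC class II genes 3 were lower, H2-Eb1 beside H2-Aa and H2-Ab1, and H2-Ob, a chain of the H2-O modulator of peptide loading, read 834 in CD25hi Foxp3+ cells, against 195 in CD25+ Foxp3- cells. Of 235 zinc finger genes with a Zfp symbol 14 were lower (5.96%, beside 6.84% of all genes) and 1 was higher (0.426%, beside 4.82% of all genes). None of 49 ribosomal protein genes and none of 76 mitochondrial ribosomal protein genes differed by 2-fold.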
